A study of Mus musculus with 22 samples.

Results

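The 36 genes described here encode the proteins that fill, dock and fuse synaptic vesicles: the SV2 glycoproteins Sv2a to Sv2c, 13 synaptotagmins, synaptophysin and 2 synaptogyrins, 4 SNARE genes, 3 complexins, 4 priming and active zone genes, 3 vesicular glutamate transporters and 3 synapsins. They were chosen by symbol, and all 36 were among the 40714 genes tested of the 53379 in the count table. Nuclei came from the left hippocampus of adult male C57/BL6N mice, contralateral (CLH) to an injection of kainate or saline above the right hippocampus, 24 h after the injection. Kainate is a glutamate receptor agonist that elicits status epilepticus, and only animals with convulsive seizures entered the kainate group. Nuclei were sorted by NeuN, a nuclear protein of most mature neurons, into a NeuN+ fraction (neurons) and a NeuN- fraction (glia). The 11 mRNA libraries were 3 of sham neurons, 3 of kainate neurons, 2 of sham glia (numbered 1 and 3) and 3 of kainate glia. Each library was made from pooled hippocampi of 4 or 2 mice, with 8 mice per treatment in 3 pools, so no value belongs to a single animal. The sources used do not say which library numbers held 4 mice. The NeuN- fraction also holds nuclei of neurons with little NeuN, so glia here means all nuclei outside the NeuN gate.

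Neurotransmitter is loaded into vesicles by transporters such as the VGLUT proteins, and the loaded vesicles are docked and primed at the active zone by RIM, Munc13 and RAB3 proteins. Fusion is driven by SNARE proteins and held back or promoted by complexins until calcium binds a synaptotagmin, with fast release in the forebrain resting mainly on synaptotagmin 1. Synapsins tether the reserve pool of vesicles, and SV2 proteins are vesicle glycoproteins, of which SV2A is the binding site of the antiseizure drug levetiracetam.

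Library totals ranged from 12058875 to 45428465 counts. The 36 genes together held 0.753 to 1.09% of the counts of the neuron libraries and 0.320 to 0.414% of those of the glia libraries. The 4 libraries numbered 1 stood apart: after TMM scaling the 36 genes summed to 15521 and 14146 normalized CPM (counts scaled to library size) in sham and kainate neurons numbered 1, against 7060 to 10572 in the other 4 neuron libraries. A fit without these 4 libraries is therefore given where it changes a result. The sham glia library numbered 1 and the kainate glia library numbered 2 were made from 0.05 ng of RNA with 15 PCR cycles, the others from 1 ng with 10 cycles. The sort was visible in Rbfox3, the gene of NeuN, at 171 to 278 CPM in neurons and 23.8 to 49.2 CPM in glia, and in Mbp of oligodendrocytes, at 81.0 to 139 CPM in neurons and 640 to 4705 CPM in glia. In these bulk nuclei, fewer nuclei of a type and less RNA per nucleus cannot be told apart.

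In sham neurons the release genes differed widely in level per kilobase of exon. Slc17a7, encoding VGLUT1, the transporter of most hippocampal excitatory neurons, was the highest at 353 ± 184 CPM per kb (SD, n = 3). It was followed by Syt1 at 148 ± 74.8 and by Vamp2, the vesicle SNARE, at 126 ± 44.6 CPM per kb. Syngr3, Snap25, Syp and Rab3a came next at 98.8 to 112 CPM per kb. At the lower end, Sv2c stood at rank 31 with 2.73 ± 0.375 CPM per kb, below Sv2a at 79.9 ± 40.1 and Sv2b at 41.4 ± 19.1 CPM per kb. The lowest 5 genes were Syt2, Syt9, Cplx3, Syt6 and Slc17a8, the last of these, VGLUT3, at 0.426 ± 0.147 CPM per kb. Neighbours in the order were mostly not separable: the ranges over the 3 libraries overlapped between adjacent genes everywhere except between Syt10 and Syt12 and between Syt6 and Slc17a8.

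**Figure D1:**
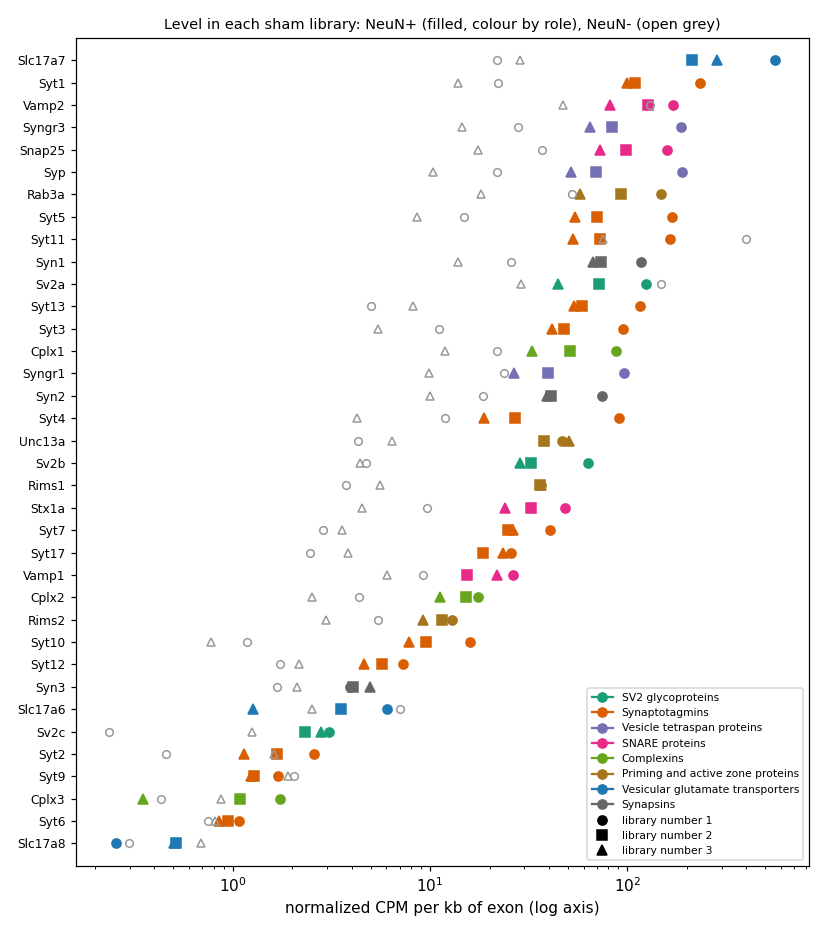
Level of each of the 36 genes in the sham libraries, as normalized CPM per kb of exon on a log axis, ordered by the mean in sham neurons; filled symbols are the 3 NeuN+ libraries, coloured by role, and open grey symbols the 2 NeuN- libraries. Slc17a7 is highest at 353 CPM per kb in sham neurons and Slc17a8 lowest at 0.426, and for most genes the circle of library 1 lies to the right.

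Release genes were mostly neuronal. Across both treatments 28 of the 36 were higher in NeuN+ than in NeuN- nuclei and 1 was lower at a false discovery rate (FDR) below 0.25, the study's threshold, by edgeR's quasi-likelihood test. Of all 40714 genes tested 37.2% were called in this comparison, 16.8% higher and 20.4% lower. The median log2 fold change of the 36 was 1.98, against -0.47 for all genes tested. In a fit with a block for the replicate number, 31 were higher and 2 lower, where 26.5% of all genes were higher and 30.9% lower, 57.4% in all, and with the pool (the animals of 1 treatment and number, sorted into both fractions) as a block 30 were higher and 2 lower, where 24.9% were higher and 34.8% lower, 59.7% in all.

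Of the SV2 glycoproteins, Sv2b was higher in neurons by 3.31 ± 0.37 (log2 fold change ± SE) and Sv2c by 1.76 ± 0.37, with FDR = 4.3e-05 and 0.0039. Sv2a was at 198 to 611 CPM in neurons and at 134 to 687 CPM in glia, a log2 fold change of 0.08 ± 0.48 (95% interval -0.95 to 1.12, FDR = 0.91). The ranges of Sv2a in the fractions thus overlapped almost fully, with the 4 libraries numbered 1 the highest. Without the 4 libraries numbered 1 Sv2a was higher in neurons by 0.82 (FDR = 0.021), and without the low-input libraries by 0.89 (FDR = 0.23). With the replicate number as a block its log2 fold change was 0.24 (FDR = 0.17).

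Among the 13 synaptotagmins, the calcium sensors and trafficking proteins of exocytosis, 9 were higher in neurons and 1 lower, and Syt13 differed most, by 3.37 ± 0.39. Syt11, a synaptotagmin that does not bind calcium, was the only one of the 36 that was lower in neurons, by 1.21 on the log2 scale (log2 fold change -1.21 ± 0.53, FDR = 0.14). Its level was 263 to 850 CPM in neurons and 389 to 2100 CPM in glia, and the ranges overlapped. The call was lost without the sham glia library numbered 1, where the log2 fold change was -0.36 (FDR = 0.57), without both low-input libraries at -0.40 (FDR = 0.58), and without sham neurons numbered 2 or 3 at -1.13 and -1.07 (FDR = 0.252 and 0.2503). Syt6 (log2 fold change -0.31 ± 0.26), Syt9 (-0.23 ± 0.29) and Syt2 (0.68 ± 0.38) were not called. With the replicate number as a block Syt2 was higher by 0.81 (FDR = 0.0011) and Syt6 lower, at -0.36 (FDR = 0.19). With 1 library left out Syt2 ran from 0.39 to 1.27, the latter without sham glia 3. It was called higher without sham neurons 3 or kainate neurons 3 (FDR = 0.22 and 0.24). Syt6 ran from -0.63 to -0.23 and was called lower without kainate glia 3 (FDR = 0.11).

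The vesicle tetraspan genes were all called higher in neurons, from Syngr1 at 1.82 ± 0.44 to Syp, synaptophysin, at 2.67 ± 0.45. Of the SNARE genes, Stx1a (2.33 ± 0.33), Snap25 (2.11 ± 0.34) and Vamp1 (1.64 ± 0.28) were higher in neurons. Vamp2 was at 309 to 720 CPM in neurons and 159 to 508 CPM in glia, with a log2 fold change of 0.61 ± 0.40 (FDR = 0.32). With 1 library left out Vamp2 ran from 0.26 to 1.09, the latter without sham glia 1. It was called higher without kainate neurons 3 or kainate glia 1 (FDR = 0.247 and 0.207). With the replicate number as a block the Vamp2 value was 0.66 (FDR = 9.9e-05), and without the libraries numbered 1 it was 1.14 (FDR = 0.0015).

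All 3 complexins were called higher, from Cplx3 at 0.93 ± 0.45 (FDR = 0.19) to Cplx2 at 2.08 ± 0.29. The call of Cplx3 was lost in 6 of the 11 fits that left out a library, at 0.60 to 0.93 (FDR = 0.26 to 0.45): without sham neurons 1 or 2, kainate neurons 1 or 2, sham glia 1 or kainate glia 3. All 4 priming genes were called higher, from Rims2 at 1.47 ± 0.25 to Unc13a, encoding Munc13-1, at 2.98 ± 0.34. The synapsins ranged from Syn3 at 1.14 ± 0.28 to Syn1 at 2.08 ± 0.32. The vesicular glutamate transporters were split. Slc17a7 had the largest value of the 36, at 3.59 ± 0.44 (FDR = 6.2e-05), with 1146 to 3021 CPM in neurons and 98.7 to 280 CPM in glia. Slc17a6, encoding VGLUT2, and Slc17a8 had log2 fold changes of 0.13 ± 0.45 and -0.46 ± 0.51 and were not called. With the pool as a block Slc17a8 was called lower, at -0.51 ± 0.32 (FDR = 0.24), and with the replicate number as a block it was not (FDR = 0.34). Beside these low values, the summed CPM of 6 markers of Cajal-Retzius cells was 104 to 130 in neurons and 213 to 796 in glia. Of these, 5 of 6 were lower in neurons. The 6 markers of thalamus (Tcf7l2, Lhx9, Rora, Ramp3, Plekhg1 and Prkcd) summed to 57.5 to 103 CPM in neurons and 149 to 456 CPM in glia. Of the 6, 4 were lower and 1 higher in neurons, and whether they mark thalamic nuclei in either fraction was not tested. No marker of either list was at 0 in a group, and their part in the values of Slc17a6 was not tested.

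**Figure D2:**
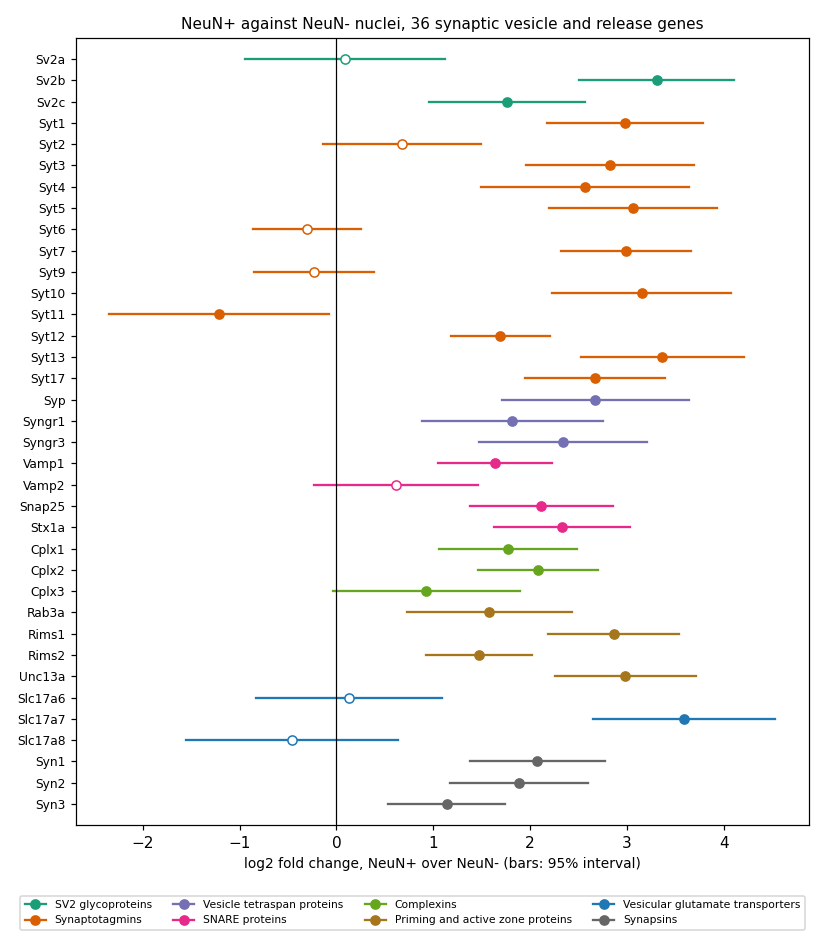
Log2 fold change of the 36 genes between NeuN+ and NeuN- nuclei over both treatments (11 libraries), with 95% intervals from edgeR; filled points were called at FDR below 0.25 and open points were not. Of the 36, 28 filled points lie above 0, Syt11 lies below 0 at -1.21, and Sv2a, Syt2, Syt6, Syt9, Vamp2, Slc17a6 and Slc17a8 are open.

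The kainate comparison asked whether release genes differed in the CLH 24 h after status epilepticus. In neurons 1 of the 36 was upregulated, Sv2c, and none was downregulated, where 0.165% of all genes tested were called, 0.157% higher and 0.00737% lower. An unadjusted p below 0.05 was reached by 1 member, Sv2c, and by 2.09% of all genes. The median log2 fold change of the 36 was 0.07, against -0.01 for all genes, with 21 genes above 0 and 15 below. Apart from Sv2c the values ran from -0.72 for Syt10 to 0.99 for Cplx3, and 27 of the 36 were within 0.5 of 0. The 95% interval of a member reached 0.97 to either side at the median.

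In glia 0 of the 36 were called by edgeR in the model of all libraries, where 0.101% of all genes were, 0.0933% higher and 0.00737% lower. The study, which tested each fraction separately and over fewer genes, listed Sv2c as upregulated in both fractions at the same threshold. An unadjusted p below 0.05 was reached by 2, Sv2c and Syt6, and by 2.05% of all genes. DESeq2 called both of these in glia, and the share of all genes it called is not given here. The median log2 fold change was 0.02, equal to that of all genes to 2 decimals, with 19 genes above 0 and 17 below. The 95% interval reached 1.09 to either side at the median. The immediate early genes, a list of 12 activity-induced transcription factor and effector genes, were called higher for 6 in neurons and 3 in glia, and for 12 and 11 with the replicate number as a block.

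The libraries of 1 number deviated together from their group means, so the replicate number is taken as a pairing and the fit with it as a block is given beside the fit without it. With the block 8 of the 36 were called in neurons, where 5.09% of all genes were, 3.19% higher and 1.90% lower: Sv2c, Syt4, Syt12, Cplx3 and Slc17a6 higher, and Syt3, Syt7 and Syt10 lower. In glia 4 were called with the block, where 5.79% of all genes were, 2.93% higher and 2.86% lower: Sv2c, Syt4 and Syt6 higher and Syt3 lower. No sham glia library is numbered 2, so kainate glia 2 adds nothing to the blocked comparison of kainate and sham glia. That comparison rests on the pairs numbered 1 and 3, and sham glia 1 is a low-input library. The block narrowed the 95% interval of a member to 0.38 to either side at the median in neurons and to 0.48 in glia. The block left 3 residual degrees of freedom, so these intervals and its FDRs rest largely on a spread that edgeR shares over genes.

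**Figure D3:**
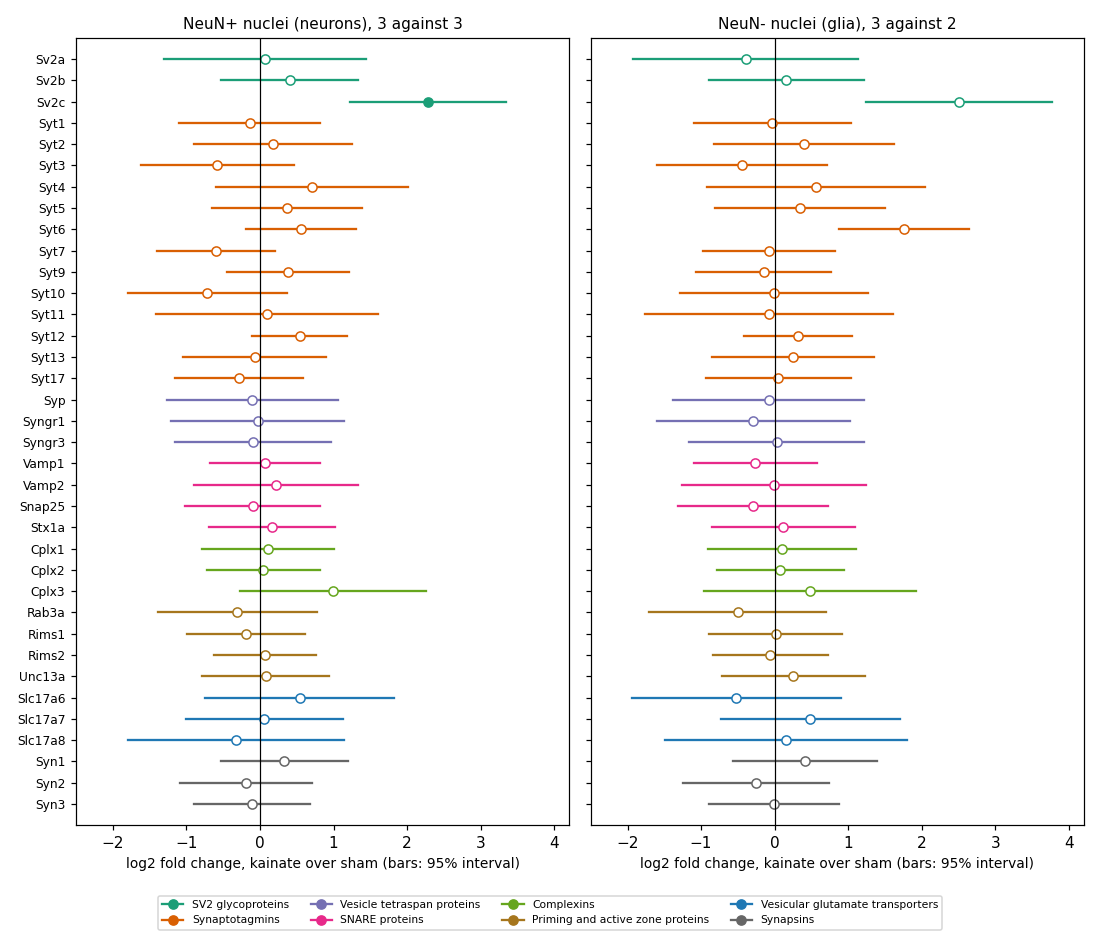
Log2 fold change between kainate and sham for the 36 genes in neurons (left, 3 against 3 libraries) and glia (right, 3 against 2), with 95% intervals from the edgeR fit without a block; filled points were called at FDR below 0.25. Sv2c in neurons, at 2.29, is the only filled point, and in glia the intervals of Sv2c and Syt6 alone lie above 0.

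Sv2c, on the minus strand of chromosome 13 (95954594 to 96132577, GRCm38), encodes the SV2 paralogue that is sparse in hippocampus and abundant in basal ganglia. Its level was 29.7, 22.5 and 27.2 CPM in sham neurons and 94.0, 166 and 128 CPM in kainate neurons. In glia it was 2.30 and 12.1 CPM in sham and 31.4, 46.7 and 45.6 CPM in kainate. Every kainate library of a fraction was above every sham library of it, and all 5 pairs of 1 number were higher in kainate.

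In neurons this was a log2 fold change of 2.29 ± 0.49, or 4.89-fold (95% interval 1.23 to 3.35, FDR = 0.249 by edgeR's quasi-likelihood test). The FDR lay just under the threshold and rose above it without any 1 of the 6 neuron libraries (log2 fold change 2.07 to 2.47, FDR = 0.305 to 1) and without the kainate glia library numbered 2 or 3 (FDR = 0.48 and 0.31). With the replicate block Sv2c was upregulated in neurons by 2.26 ± 0.23 (FDR = 2.7e-10). In glia the log2 fold change was 2.51 ± 0.59, which was not called without a block (95% interval 1.25 to 3.77, FDR = 0.49), and was called with it at 2.70 ± 0.31 (FDR = 6.7e-09). Without the sham glia library numbered 3, which leaves the low-input library as the lone sham library, the value was 4.15 (FDR = 0.084), and without the libraries numbered 1 it was 1.95 (FDR = 0.017). Without both low-input libraries it was 1.69 (FDR = 1). The fits without the libraries numbered 1 and without the low-input libraries keep sham glia 3 as the lone sham library, and in all 3 of these fits its spread is assumed to be that of the other groups.

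The other SV2 genes did not pass the test in either fraction. Sv2a had log2 fold changes of 0.07 ± 0.64 in neurons and -0.39 ± 0.71 in glia, and Sv2b of 0.40 ± 0.43 and 0.16 ± 0.49. Per kilobase of exon, Sv2c made up 1.61, 2.17 and 3.71% of the summed level of the 3 SV2 genes in sham neurons and 4.55, 12.1 and 13.02% in kainate neurons. The kainate shares were all above the sham shares, and Sv2c remained the lowest of the 3 paralogues per kilobase in all 6 neuron libraries. In glia the share was 0.15 and 3.61% in sham and 2.78, 6.64 and 11.4% in kainate, which overlapped.

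**Figure D4:**
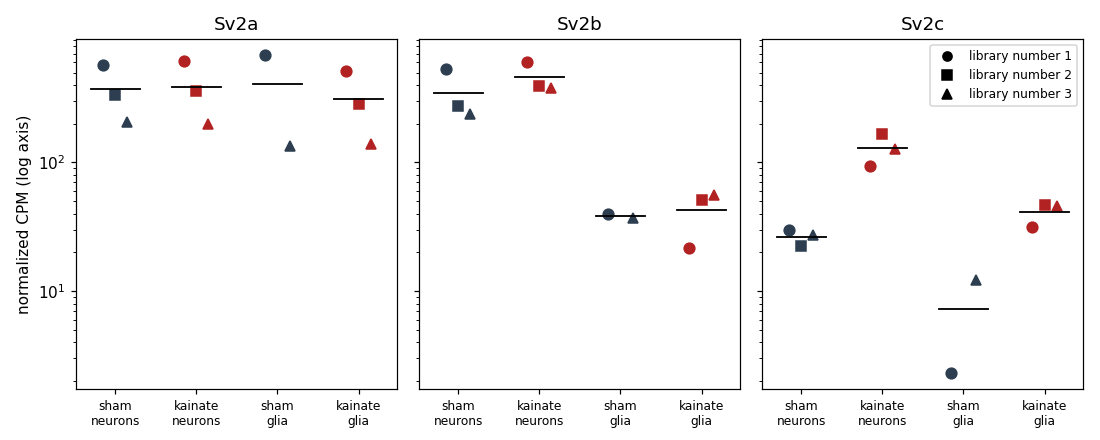
Normalized CPM (log axis) of Sv2a, Sv2b and Sv2c in each library by group; symbols mark the library number, horizontal lines the group means, dark blue points sham and red points kainate. Sv2c is at 22.5 to 29.7 CPM in sham neurons and at 94.0 to 166 CPM in kainate neurons, while the groups overlap for Sv2a and Sv2b.

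Levels of other cell types' genes are given beside these values. In neurons the summed CPM of 7 astrocyte markers was 201 to 274 in sham and 282 to 434 in kainate, and that of 5 choroid plexus markers was 36.7 to 45.4 and 41.2 to 83.1. In glia the choroid plexus markers summed to 22.5 to 26.0 CPM in sham and 32.3 to 99.2 CPM in kainate. The 8 interneuron markers summed to 273 to 789 CPM in sham neurons and 392 to 796 CPM in kainate neurons, and 0 markers of these 3 lists were called for kainate in either fraction without a block. With the block 4 of 7 astrocyte markers were higher and 2 lower in neurons, 2 of 8 interneuron markers were higher and 1 of 5 choroid plexus markers was higher. In glia with the block 2 choroid plexus markers were higher, 1 interneuron marker was higher and 1 lower, and 1 astrocyte marker was higher and 4 lower. In kainate glia the markers of oligodendrocytes summed to 4692 to 26324 CPM, against 8379 to 37450 CPM in sham glia, and those of astrocytes to 653 to 3395 CPM, against 1179 to 4458 CPM. Those of microglia summed to 651 to 1877 CPM in kainate and 656 to 3561 CPM in sham glia, and the ranges of all 3 lists overlapped. With the block 3 of 6 oligodendrocyte markers, 4 of 5 markers of their precursors and 2 of 6 microglia markers were lower in kainate glia, and none of these was higher. The 7 neuron markers summed to 1512 to 1962 CPM in sham glia and 1397 to 1859 CPM in kainate glia. In neurons they summed to 12714 to 20283 CPM in sham and 10904 to 18814 CPM in kainate. None of the 7 was called for kainate without the block. With it 1 was higher and 1 lower in glia, and 1 was lower in neurons. No marker of these lists was at 0 in a group, and their part in the Sv2c values was not tested.

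The promoters of the 2 members with the largest kainate values, Sv2c and Syt6, and of Syn1 as the member with a CRE match, are shown because activity-dependent transcription in neurons often runs through CREB and AP-1 sites. The 250 bases before the RefSeq start (GRCm38.p6) are printed 5′ to 3′ on the gene's strand, and capitals mark a match to the CRE letters TGACGTCA; AP-1 was searched as TGANTCA, both on both strands, and the motifs do not overlap in these letters. The Sv2c window is chr13:96132578-96132827 on the minus strand, the Syt6 window is the first of 3 starts, chr3:103574995-103575244 on the plus strand, and the Syn1 window is chrX:20920919-20921168 on the minus strand.
Sv2c: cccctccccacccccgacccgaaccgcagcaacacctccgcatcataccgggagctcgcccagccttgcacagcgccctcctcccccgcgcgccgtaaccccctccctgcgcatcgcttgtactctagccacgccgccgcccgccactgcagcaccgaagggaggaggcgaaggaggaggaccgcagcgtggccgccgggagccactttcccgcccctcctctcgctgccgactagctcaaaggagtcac
Syt6: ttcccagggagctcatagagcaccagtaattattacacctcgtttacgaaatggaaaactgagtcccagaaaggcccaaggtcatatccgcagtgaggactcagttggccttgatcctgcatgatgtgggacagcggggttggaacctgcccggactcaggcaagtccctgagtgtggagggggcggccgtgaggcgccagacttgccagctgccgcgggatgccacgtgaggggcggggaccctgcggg
Syn1: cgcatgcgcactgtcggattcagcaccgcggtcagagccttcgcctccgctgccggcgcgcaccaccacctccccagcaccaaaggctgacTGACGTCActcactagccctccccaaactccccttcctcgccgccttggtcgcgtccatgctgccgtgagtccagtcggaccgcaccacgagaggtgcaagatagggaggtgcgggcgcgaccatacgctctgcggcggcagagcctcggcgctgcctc
Neither motif was found in the Sv2c or Syt6 window. Of 32851 such windows in the table, 1.55% held the CRE letters and 6.75% the AP-1 letters. Of the 25 members with a window, Syn1 held a CRE match, 159 to 152 bases before its start, and Syt2 an AP-1 match. Syn1 itself had kainate log2 fold changes of 0.33 ± 0.40 in neurons and 0.41 ± 0.46 in glia and was not called with or without the block.

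Syt6, on the plus strand of chromosome 3 (103575231 to 103645569), encodes a synaptotagmin of the group whose members form disulfide-linked dimers. Its level was low: 6.24, 5.48 and 4.96 CPM in sham neurons and 9.03, 7.65 and 7.88 CPM in kainate neurons. In glia it was 4.35 and 4.71 CPM in sham and 17.8, 17.6 and 10.7 CPM in kainate. The groups did not overlap in either fraction and all 5 pairs were higher in kainate. In glia the log2 fold change was 1.76 ± 0.41 (95% interval 0.87 to 2.65, FDR = 0.50 by edgeR), and 1.60 ± 0.34 with the replicate block (FDR = 0.0022). It was also called without the libraries numbered 1, at 1.597 (FDR = 0.13), and without sham glia 3, at 1.81 (FDR = 0.24), each against a lone sham library. In neurons it was 0.56 ± 0.35 and not called with the block either (FDR = 0.53). Of the exon bases of Syt6, 8.67% are shared with the pseudogene Atg4a-ps on the opposite strand; since the strand setting of the counting is not given, reads of such partners cannot be told apart, which leaves the counts of Syt6 uncertain to that extent. The same holds for Syt4 and Syt12, for Syp, which shares 16.8% with Gm14703, for Syn3, which shares 14.1% with Timp3, and for Syt7, which shares 5.13% with Gm26859; 5 other members share 0.27 to 3.92%.

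Syt4 encodes an activity-regulated synaptotagmin of dense-core vesicles and lies on chromosome 18 (31437808 to 31447406). Its level was 354, 104 and 72.6 CPM in sham neurons and 500, 209 and 156 CPM in kainate neurons. In glia it was 46.4 and 16.5 CPM in sham and 58.3, 39.2 and 41.9 CPM in kainate. The groups overlapped in both fractions, with the libraries numbered 1 highest in each group, while all 5 pairs were higher in kainate, by 0.33 to 1.34 on the log2 scale. Without the block the log2 fold changes were 0.70 ± 0.61 in neurons and 0.56 ± 0.69 in glia and were not called. With 1 library left out the neuron value of Syt4 ran from 0.044 without kainate neurons 1 to 1.71 without sham neurons 1, not called in any of these fits. With the block Syt4 was upregulated by 0.87 ± 0.19 in neurons (FDR = 0.0023) and by 0.83 ± 0.24 in glia (FDR = 0.042). An antisense gene, Gm26658, shares 14.5% of its exon bases.

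Syt12, encoding a synaptotagmin without calcium binding, was at 40.4, 31.5 and 25.5 CPM in sham neurons and at 45.9, 44.9 and 50.9 CPM in kainate neurons. In glia it was at 9.65 and 12 CPM in sham and at 12.04, 13.8 and 14.7 CPM in kainate. The groups did not overlap in either fraction, by a narrow margin in glia, and all 5 pairs were higher. The log2 fold change in neurons was 0.54 ± 0.30 without the block (FDR = 1) and 0.57 ± 0.21 with it (FDR = 0.21), and in glia it was 0.32 ± 0.34 without the block, called in neither fit. The gene A930001C03Rik on the opposite strand shares 17.2% of its exon bases.

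Syt3, Syt7 and Syt10 were called lower in neurons with the block alone. Syt7, a high-affinity calcium sensor of asynchronous release and facilitation, was at 304, 187 and 197 CPM in sham neurons and at 169, 161 and 126 CPM in kainate neurons. The groups did not overlap, and the log2 fold change was -0.59 ± 0.37 (FDR = 1), or -0.57 ± 0.19 with the block (FDR = 0.10). Syt3, a sensor placed at the plasma membrane, was at 295, 148 and 130 CPM in sham and 183, 141 and 60.6 CPM in kainate neurons, which overlapped. Its log2 fold change was -0.58 ± 0.48 (FDR = 1), or -0.62 ± 0.19 with the block (FDR = 0.072). With 1 library left out, and no block, Syt3 ran from -0.93 without kainate neurons 1 to -0.12 without sham neurons 1, and Syt7 from -0.72 without sham neurons 2 to -0.34 without sham neurons 1; neither was called.

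Syt3 was also called lower in glia with the block, at -0.73 ± 0.25 (FDR = 0.12), from 34.5 and 17.0 CPM in sham and 16.1, 27.3 and 13.2 CPM in kainate glia. Its glia value without the libraries numbered 1 was 0.27, of the other sign. Syt10, a calcium sensor of growth factor secretion, was at 29.5, 17.6 and 14.5 CPM in sham and at 20.7, 10.9 and 5.94 CPM in kainate neurons, which overlapped although each pair was lower in kainate. Its log2 fold change was -0.72 ± 0.50 (FDR = 1), or -0.82 ± 0.28 with the block (FDR = 0.12), and ran from -1.28 without kainate neurons 1 to -0.36 without sham neurons 1, with no block and no call. In glia Syt10 was at 0.88 to 2.24 CPM and its log2 fold change of -0.01 ± 0.59 was not called in either fit.

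Complexin 3, a complexin best known from retinal ribbon synapses and cortical subplate neurons, was at 5.10, 3.22 and 1.03 CPM in sham neurons and at 6.19, 8.31 and 3.96 CPM in kainate neurons. The groups overlapped, and the 3 pairs of neurons were higher by 0.27 to 1.86 on the log2 scale. The Cplx3 log2 fold change was 0.99 ± 0.59 without the block (FDR = 1), 1.18 ± 0.36 with it (FDR = 0.063), and 1.46 without the libraries numbered 1 (FDR = 0.063). With 1 library left out, and no block, it ran from 0.57 without sham neurons 3 to 1.53 without sham neurons 1 and was not called. Cplx1 and Cplx2, the main complexins of forebrain synapses, had values of 0.11 ± 0.42 and 0.04 ± 0.36.

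Slc17a6 was at 32.7, 19.1 and 6.87 CPM in sham neurons and at 42.3, 32.5 and 10.6 CPM in kainate neurons. The groups overlapped and the 3 pairs were higher by 0.37 to 0.76. Its log2 fold change was 0.54 ± 0.60 (FDR = 1), or 0.59 ± 0.22 with the block (FDR = 0.22). With 1 library left out, and no block, the value ran from 0.14 without sham neurons 3 to 1.13 without sham neurons 1 and was not called. In glia it was at 38.1 and 13.6 CPM in sham and 25.3, 15.2 and 13.5 CPM in kainate, and its value of -0.52 ± 0.66 was not called. Markers of thalamus, where VGLUT2 is the main transporter, summed to 83.9 to 103 CPM in sham and 57.5 to 75.5 CPM in kainate neurons, with 0 of 6 called without the block and 3 of 6 lower with it, and their part in the Slc17a6 value was not tested. Slc17a7 had values of 0.06 ± 0.50 in neurons and 0.49 ± 0.57 in glia, and Slc17a8, at 0.57 to 4.47 CPM in all libraries, of -0.33 ± 0.68 and 0.15 ± 0.76.

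The core of the fusion machinery passed no test for kainate, with or without the block. In neurons the 4 SNARE genes ran from -0.10 for Snap25 (95% interval -1.02 to 0.82) to 0.21 for Vamp2 (-0.90 to 1.33), and with the block the interval of Snap25 was -0.43 to 0.28. Syt1, the fast calcium sensor, had a value of -0.14 ± 0.45 in neurons, with a blocked interval of -0.47 to 0.25. Syp, Syngr1 and Syngr3 lay between -0.10 and -0.03 in neurons. Rab3a, the vesicle GTPase, had the lowest values of the 4 priming genes, -0.31 ± 0.50 in neurons and -0.50 ± 0.56 in glia, and all 5 pairs were lower in kainate. Rims1 was at 268, 267 and 270 CPM in sham and 209, 263 and 234 CPM in kainate neurons, which did not overlap, with a log2 fold change of -0.19 ± 0.38. The synapsins ran from -0.19 for Syn2 to 0.33 for Syn1 in neurons.

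Counted over the 36 genes, kainate and sham libraries did not overlap for 5 in neurons, Sv2c, Syt6 and Syt12 higher and Syt7 and Rims1 lower, where 7.86% of all genes did not overlap. In glia they did not overlap for 3, Sv2c, Syt6 and Syt12, where 8.22% of all genes did not. All 5 pairs were higher for 4 members, Sv2c, Syt4, Syt6 and Syt12, where this held for 7.16% of all genes, and lower for 2, Syt3 and Rab3a, where it held for 5.05%.

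**Figure D5:**
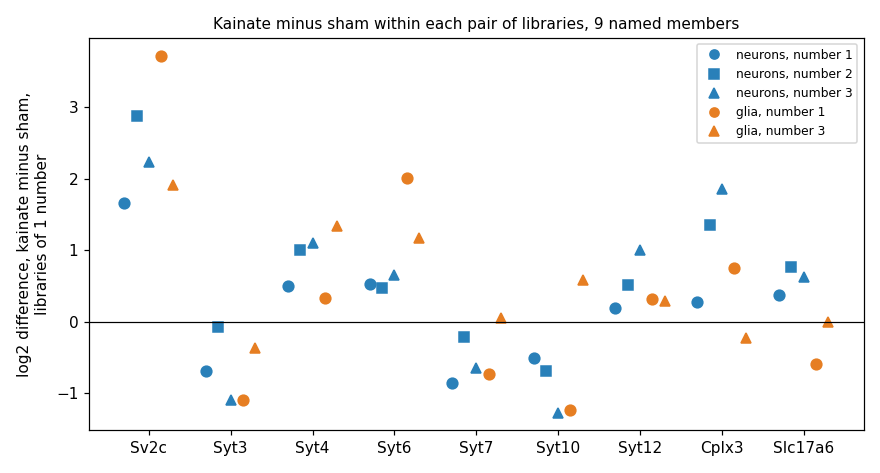
Log2 difference between the kainate and the sham library of 1 number in neurons (blue) and glia (orange) for the 9 members named by rule; symbols mark the library number. The 5 points of Sv2c lie between 1.66 and 3.72, those of Syt4, Syt6 and Syt12 all lie above 0 and those of Syt3 all below 0.

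The kainate effect was not shown to differ between neurons and glia for any of the 36 in the test of the difference itself, where 0.00246% of all genes were called; 1 member, Syt6, had an unadjusted p below 0.05 by edgeR, as did 0.909% of all genes. The Syt6 effect was lower in neurons than in glia by a log2 difference of -1.20 ± 0.53 (95% interval -2.34 to -0.066, FDR = 1), and with the block by -1.04 ± 0.44 (FDR = 0.55). For Sv2c the difference was -0.22 (FDR = 1). DESeq2 called 0 of the 36, and the share of all genes it called is not given here. The fit with the replicate block also called 0, where 1.94% of all genes were called (1.23% higher, 0.702% lower). So did the fit with the pool as a block, where 0.0221% were (0.0172% higher, 0.00491% lower). The 95% interval of this difference reached 1.45 to either side at the median over the 36.

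Of 78 further genes of vesicle release and recycling, in 5 lists of other active zone and priming genes, other SNAREs and their regulators, other vesicle membrane and transport genes, other synaptotagmins and Slp genes, and endocytosis genes, 76 were tested. They too were mostly neuronal, with 50 higher and 9 lower in NeuN+ nuclei, where 16.8% of all genes were higher and 20.4% lower. For kainate 0 of the 76 were called in either fraction by edgeR without the block; their median log2 fold changes were -0.04 in neurons and -0.07 in glia. With the block 5 were higher and 4 lower in neurons, where 3.19% of all genes were higher and 1.90% lower, and 1 was higher and 5 lower in glia, where 2.93% were higher and 2.86% lower.

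Of the genes called with the block, 7 of those with the smallest p are named. In neurons Doc2a, a calcium sensor of spontaneous release, was higher by 1.19 ± 0.25 (FDR = 0.0013). Unc13b, encoding Munc13-2, was higher by 0.75 ± 0.19 (FDR = 0.014) and Rimbp2, encoding a RIM-binding protein, by 0.71 ± 0.20 (FDR = 0.032). Cadps2, which primes dense-core vesicles, had the lowest value in neurons at -1.09 ± 0.20 (FDR = 0.00019), and Ppfia2, encoding liprin-alpha-2, was at -0.66 ± 0.18 (FDR = 0.033). In glia Dnajc6, encoding the clathrin-uncoating protein auxilin, was lower, at -0.93 ± 0.23 (FDR = 0.010). Slc18a3, the vesicular acetylcholine transporter, was called higher in glia (FDR = 0.0080) on raw counts of 0 and 2 in sham and 69, 37 and 21 in kainate, and in neurons its counts were 5, 8 and 12 in sham and 43, 34 and 2 in kainate.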

How the data were processed

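Nuclear RNA of sorted NeuN+ and NeuN- nuclei was converted to cDNA by oligo(dT) priming (SMART-Seq v4) and sequenced. The study ran its libraries on NextSeq (single reads) or HiSeq (paired-end reads). Which library ran on which platform is not given in the sources used here, and its part in the results was not tested. The authors trimmed reads with Trim Galore 0.4.3, aligned them with Rsubread to mm10 and deposited raw counts per gene, made by featureCounts with GENCODE M16; the strand setting is not given in the sources used here. The 11 bisulfite samples were not analysed here. Symbols and exon lengths came from GENCODE M21 (same build, 105 IDs without a symbol left out). Counts were filtered (filterByExpr, minimum count 10, total 15), scaled by TMM and tested with edgeR 4.0.16 (quasi-likelihood, 4 group means in 1 model; R 4.3.3), with Benjamini-Hochberg adjustment over all 40714 genes and an FDR threshold of 0.25. No source states that pools of 1 number share a day or batch; the deviations of same-numbered libraries from their group means correlated at 0.64, 0.16 and 0.49 in neurons and 0.76 and 0.79 in glia (2 pairs, which mirror each other), so the number was taken as a pairing and also fitted as a block within each cell type. Kainate neurons numbered 2 correlated as well with sham neurons numbered 3 (0.17). Normalized CPM are divided by TMM-scaled library size. The SE is the log2 fold change over the root of the F statistic. Alternatives were DESeq2 1.42.0, other filters, each library left out and the low-input libraries left out; the fit without the libraries numbered 1 was chosen after seeing the data. Members and lists were chosen with earlier results of these data known. Members named with every library are Sv2c, those called for kainate or the difference with or without the block, and those without overlap at unadjusted p below 0.05; in each role group the extremes of NeuN+ against NeuN-, and of the other lists at most 8 called genes by smallest p, of which 1 is not reported here. Rims1 was added after its values were seen. The labels call the pools biological replicates. The p-values of edgeR set effects against a spread between pools that is moderated by a spread shared over genes. Residual degrees of freedom were 7 without the block, beside 6.76 from the shared spread, and 3 with the block. A protocol label names the right hippocampus, while titles and design text give the left, which is used here.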

Additional observations from a re-analysis of the deposited data

How the results depend on the processing

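Of 84 recomputed counts of members called over the 4 comparisons, 67 stayed within 1.5 times the value given in the report. The 1 member called for kainate in neurons became 0 at FDR below 0.05, 8 with the replicate block and 2 (Sv2c and Cplx3) without the libraries numbered 1; leaving out 1 library gave 0 to 1, with 0 in 8 of 11 fits. The 0 in glia became 2 by the DESeq2 Wald test, 1 with a filter of at least 1 CPM in 3 libraries (Syt6), 1 by the newer quasi-likelihood method (Sv2c), 4 with the replicate block and 2 (Sv2c and Syt6) without the libraries numbered 1; leaving out 1 library gave 0 to 2, with 2 without sham glia numbered 3. Without sham glia 1 or 3, the low-input libraries or those numbered 1, the lone sham glia library is assumed to vary like the other groups. The count for the difference between fractions stayed at 0 in all fits, and NeuN+ against NeuN- gave 27 to 33. Apart from the blocked fits, the share of all genes called under these alternatives is not given here. The cause of these changes was not tested. The block changed the calls named in the report and, of the others, no kainate call.

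Of 1323 single-gene values 43 changed sign, none of them called on either side. Ranges are over the fits with 1 library left out. For kainate in glia, Syt3 was 0.27 without the libraries numbered 1 (range -0.88 to 0.18), Syt4 had a range of -0.0078 to 1.52, and Syt7 was 0.069 without the libraries numbered 1 (range -0.41 to 0.13). Syt10 was 0.033 with the CPM filter, 0.089 by the newer method, 0.015 in a separate fit per cell type, 0.14 without both low-input libraries and 0.64 without the libraries numbered 1 (range -0.30 to 0.34). Without both low-input libraries Cplx3 was -0.21 and Slc17a6 0.53, and Slc17a6 was 0.095 without the libraries numbered 1 (range -1.09 to 0.43). For the difference between fractions, Sv2c was 0.61 without the low-input libraries and 0.54 without the libraries numbered 1 (range -1.86 to 0.50), and Syt3 was 0.11 with the replicate block (range -0.76 to 0.33). Syt4 was -0.069 with the pool as replicate block, -0.92 without the low-input libraries and -0.34 without the libraries numbered 1 (range -0.81 to 1.14), and Cplx3 had a range of -0.076 to 1.05. For NeuN+ against NeuN-, Sv2a had a range of -0.28 to 0.92, and Slc17a6 was -0.046 with the pool as replicate block (range -0.16 to 0.62).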
